A study of Homo sapiens with 3 samples.

Results

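The genes described here are 9 members of the major histocompatibility complex (MHC) class I pathway, taken by gene name from a table of 50868 genes: the heavy chain genes HLA-B, HLA-C and HLA-E, the light chain gene B2M, the peptide transporter genes TAP1 and TAP2, the tapasin gene TAPBP, the trimming enzyme gene ERAP1 and the transcriptional regulator gene NLRC5. All 9 were found, each in 1 row, and all 9 passed the filter of a mean of at least 1 FPKM (a count scaled for gene length and library size) over the libraries, NLRC5 narrowly at 1.03. The set does not hold every class I gene. RNA was sequenced from HGC-27, an established human line of undifferentiated gastric carcinoma, 48 h after transfection at passage 6. One culture received an IRF3 siRNA, one a YAP siRNA and one a control siRNA (n.c.), so each group is 1 library and no difference has a replicate check.

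MHC class I molecules display peptides from inside the cell to CD8 T cells and natural killer cells. A heavy chain pairs with the invariant light chain beta-2 microglobulin in the endoplasmic reticulum, where TAP brings in peptides cut by the proteasome, tapasin bridges TAP to the empty molecule, and ERAP1 trims peptides to length. Interferons raise the whole pathway through interferon-stimulated response elements (ISRE), which IRF family proteins bind, and NLRC5 activates class I promoters through the RFX and NF-Y proteins bound there. IRF3 is an IRF family factor of the antiviral response, and YAP is a coactivator that works through TEAD proteins.

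In hg38, 6 of the genes lie in the MHC on chromosome 6: HLA-E at chr6:30489467-30494205 on the plus strand, and HLA-C at chr6:31268749-31272130, HLA-B at chr6:31353872-31357188, TAP2 at chr6:32821833-32838780, TAP1 at chr6:32845209-32853978 and TAPBP at chr6:33299694-33314387 on the minus strand. Outside it, B2M lies at chr15:44711477-44718877 and NLRC5 at chr16:56989485-57083531, both on the plus strand, and ERAP1 at chr5:96760810-96808100 on the minus strand. Each value is a sum over the exons of the whole gene.

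The promoters of the light chain gene, of a pair of heavy chain genes and of tapasin are shown because B2M stood apart from the heavy chain genes in the libraries. TAPBP had the next highest FPKM ratios to control, though well below those of B2M. They come from RefSeq on build GRCh38.p14, run from 250 bases before to 50 after the gene start, and are written 5′ to 3′ along the gene. RefSeq windows were matched for 7 of the 9 genes, with no entry for HLA-E and NLRC5. Capitals mark matches, on either strand, to any of 6 motifs, and neighbouring matches can overlap and run together. The motifs were the ISRE core (GAAA and GAAA around any pair of bases), CCAAT (bound by NF-Y), TGACG (bound by CREB family factors), the interferon-gamma element (TTC and GAA around any 3 bases), a kappaB form (GGGGA and CCC around any pair of bases) and GGAATG (bound by TEAD factors).
B2M (chr15:44711267-44711566, plus strand): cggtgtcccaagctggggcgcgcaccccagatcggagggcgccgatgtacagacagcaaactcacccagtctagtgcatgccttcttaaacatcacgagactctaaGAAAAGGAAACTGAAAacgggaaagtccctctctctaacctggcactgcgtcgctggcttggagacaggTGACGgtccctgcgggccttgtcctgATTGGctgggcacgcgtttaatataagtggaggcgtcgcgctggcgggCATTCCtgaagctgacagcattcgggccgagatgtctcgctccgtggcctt
HLA-B (chr6:31357130-31357429, minus strand): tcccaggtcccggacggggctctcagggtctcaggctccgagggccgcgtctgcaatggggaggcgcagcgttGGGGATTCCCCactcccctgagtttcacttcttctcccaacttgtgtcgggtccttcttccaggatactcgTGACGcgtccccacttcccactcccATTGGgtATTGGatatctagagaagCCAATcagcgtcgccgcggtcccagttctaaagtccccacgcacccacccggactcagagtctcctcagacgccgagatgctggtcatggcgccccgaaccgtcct
HLA-C (chr6:31272043-31272342, minus strand): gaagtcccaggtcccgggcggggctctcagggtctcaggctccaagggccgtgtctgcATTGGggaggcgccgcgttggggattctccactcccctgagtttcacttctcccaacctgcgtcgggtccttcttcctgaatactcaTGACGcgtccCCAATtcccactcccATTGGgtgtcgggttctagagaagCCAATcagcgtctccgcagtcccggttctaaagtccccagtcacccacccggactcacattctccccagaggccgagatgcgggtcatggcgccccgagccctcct
TAPBP (chr6:33314029-33314328, minus strand): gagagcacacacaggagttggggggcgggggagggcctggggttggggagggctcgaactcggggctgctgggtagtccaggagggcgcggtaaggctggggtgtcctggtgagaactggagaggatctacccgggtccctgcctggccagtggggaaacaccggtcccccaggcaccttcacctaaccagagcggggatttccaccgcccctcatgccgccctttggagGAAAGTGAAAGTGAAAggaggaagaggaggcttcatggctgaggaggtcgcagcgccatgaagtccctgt

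The B2M window held 2 overlapping ISRE matches starting 144 and 138 bases before the gene start, a TGACG at -75, an inverted CCAAT at -49 and an inverted GGAATG at -1. TAPBP held 2 overlapping ISRE matches, at -20 and -14. In HLA-B a TGACG at -106 was followed by inverted CCAAT letters at -81 and -74 and a CCAAT at -56, and the kappaB form matched on both strands at -177 and -176. HLA-C had a TGACG at -105 and a CCAAT at -56, in nearly the same places as HLA-B, with further CCAAT letters at -192, -95 and -80. The ISRE core occurred in 5 of the 7 matched genes (B2M, TAP1, TAP2, TAPBP and ERAP1, in any of their windows) and in 3.57% of 35116 RefSeq promoter windows. With IRF3 siRNA and YAP siRNA, FPKM ratios of these 5 genes to control ran from 1.87 and 1.96 (B2M) down to 0.569 and 0.556 (ERAP1). A link between motif and ratio was not tested. Only exact matches to the core were counted. The HLA-B and HLA-C windows both hold the unmarked letters TTTCACTTCT, close to the inverted core. The lack of a match there does not show that these promoters have no ISRE. CCAAT occurred in 5 of the 7 genes and 34.6% of windows, TGACG in 4 and 24.6%, the kappaB form in 2 and 2.85%, GGAATG in 2 (B2M and ERAP1) and 14.0%, and the interferon-gamma element in 1 (TAP1) and 7.66%. A match describes letters in the reference sequence, not a bound site.

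Library totals were 14941556 counts with IRF3 siRNA, 14385959 with YAP siRNA and 13949401 with control siRNA. YAP1 stood at 2.23 FPKM in the YAP siRNA library, against 5.89 with control siRNA, and at 3.58 with IRF3 siRNA. IRF3 stood at 2.90 FPKM in the IRF3 siRNA library against 3.55 with control siRNA, a ratio of 0.818 (counting interval 0.732 to 0.915), and its log2 ratio was -0.02 with the counts of overlapping genes added, so that library's label is checked only weakly. Of 10 epithelial markers, 1 (MUC1) reached a mean of 1 FPKM and CDH1, EPCAM, KRT18 and KRT19 were each under 0.2 FPKM in every library, while 8 of 9 fibroblast markers were measured. None of the 10 gastric markers reached that mean. In bulk RNA, fewer cells that express a gene and less of its RNA per cell cannot be told apart.

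B2M differed most from the control library. It stood at 53.1 FPKM with IRF3 siRNA and 55.6 FPKM with YAP siRNA, against 28.4 FPKM with control siRNA, from 10124, 10197 and 5049 counts. Both siRNA libraries were high and close to each other. The FPKM ratio to control was 1.87 with IRF3 siRNA (95% counting interval 1.81 to 1.94) and 1.96 with YAP siRNA (1.89 to 2.03). An interval that leaves out 1 is common at this depth: 56.9% of all measured genes had one with IRF3 siRNA against control, 52.4% with YAP siRNA against control and 31.6% with IRF3 siRNA against YAP siRNA. On the scale used for calls, log2 of FPKM plus 1, the log2 ratios were 0.88 and 0.95, just under the 2-fold threshold of that scale. Only 61 of the 11103 measured genes (0.549%) had a log2 ratio as high or higher with IRF3 siRNA, and 47 (0.423%) with YAP siRNA. No other counted gene shared exon sequence with B2M.

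**Figure D1:**
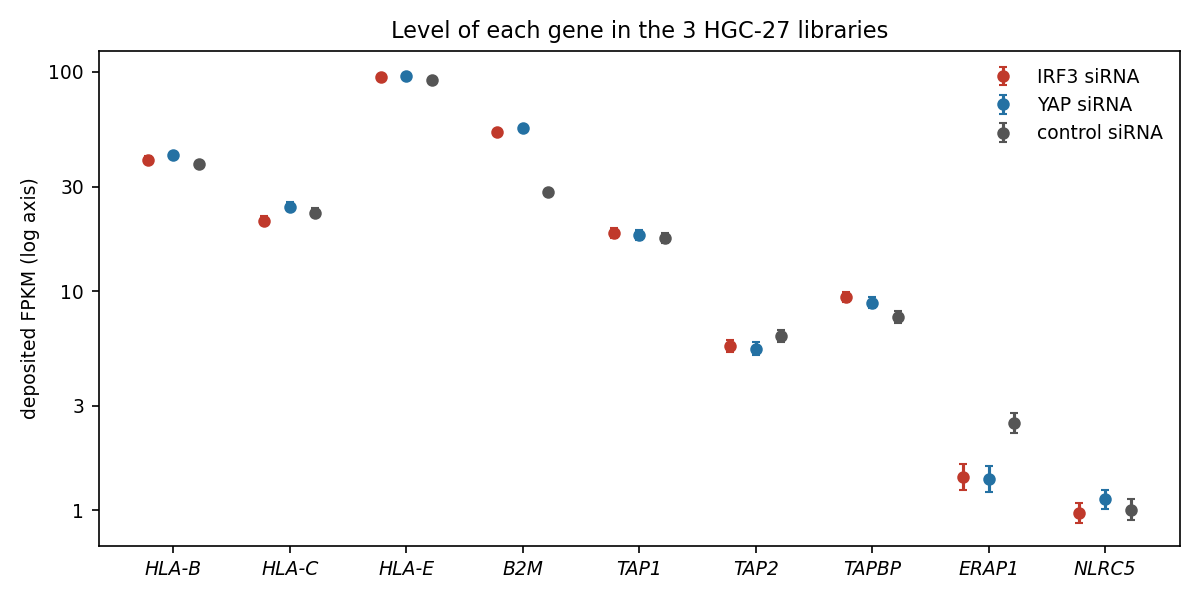
FPKM of the 9 genes (log axis) in the IRF3 siRNA, YAP siRNA and control siRNA libraries, 1 point per library, with exact Poisson 95% intervals that cover counting error only. B2M lies at 53.1 and 55.6 in the siRNA libraries against 28.4 in control, and ERAP1 at 1.42 and 1.39 against 2.50.

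On FPKM plus 1 no member passed 2-fold in any comparison. Over all 11103 measured genes 1.0% passed it with IRF3 siRNA against control, 0.82% with YAP siRNA against control and 0.612% with IRF3 siRNA against YAP siRNA, so a count of 0 among 9 is near the background. With counts as TMM-scaled CPM (counts scaled for library size in edgeR), B2M did pass, its log2 ratio being 1.01 in the IRF3 siRNA comparison and 1.06 in the YAP siRNA one, beside 1.13% and 1.18% of all genes called higher in this way. That scaling moved the median gene up by 0.09 and 0.08, and B2M stood 0.94 and 0.997 above the median gene there. Its place relative to the threshold thus depends on the scaling. The move in its log2 ratio was small beside the ratio itself but larger than its counting error.

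**Figure D2:**
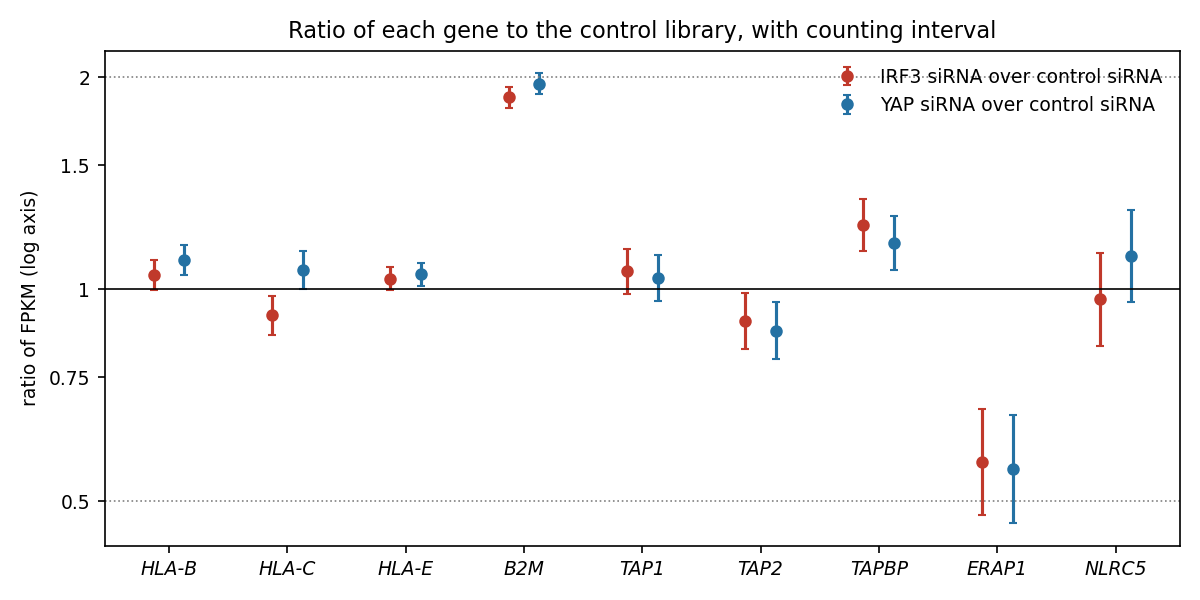
Ratio of FPKM to the control siRNA library (log axis) for IRF3 siRNA and YAP siRNA, with exact 95% counting intervals; the solid line is no difference and dotted lines are 2-fold. B2M lies at 1.87 and 1.96, ERAP1 at 0.569 and 0.556, and the remaining genes between 0.874 and 1.23.

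The heavy chain genes did not share the difference seen for B2M. HLA-B, a classical class I gene, stood at 39.8 FPKM with IRF3 siRNA and 41.8 with YAP siRNA, against 38.0 with control siRNA. HLA-C, the classical gene that is also a main ligand of killer-cell receptors, stood at 20.9 and 24.3 FPKM, against 22.8 with control siRNA. HLA-E, which presents leader peptides of other class I proteins to the natural killer receptor CD94/NKG2A, had the highest FPKM of the 9. It stood at 94.7 and 96.0 FPKM, against 91.5 with control siRNA. The values of each heavy chain gene were close in the 3 libraries, and HLA-C was the only one with its lowest value in a siRNA library, the IRF3 one.

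For HLA-B the FPKM ratio to control was 1.05 with IRF3 siRNA (0.998 to 1.10) and 1.10 with YAP siRNA (1.05 to 1.16). For HLA-E it was 1.03 (0.996 to 1.08) and 1.05 (1.01 to 1.09). For HLA-C it was 0.918 with IRF3 siRNA (0.861 to 0.979) and 1.07 with YAP siRNA (1.001 to 1.13). Counting intervals of HLA-C lay on opposite sides of 1 as deposited, and the direct ratio of IRF3 siRNA to YAP siRNA was 0.861 (0.809 to 0.917). The sides taken depend on the scale. On TMM-scaled CPM the log2 ratios of HLA-C to control were -0.02 with IRF3 siRNA and 0.18 with YAP siRNA. With the dependence on level, length and GC content (given with ERAP1) taken out they were -0.34 and -0.08. HLA-B and HLA-C are alike in sequence, and no source used here says how multiply mapped reads were assigned, so their split is uncertain. Their coordinates in the deposited table lie apart, while GENCODE release 29 draws HLA-B further, with exons that reach HLA-C. With HLA-B and the genes it overlaps in GENCODE added together, the log2 ratios were -0.003 with IRF3 siRNA and 0.12 with YAP siRNA.

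Set against each other within a library, B2M and the heavy chain genes had other proportions in the siRNA libraries than in control. B2M had 0.932 counts per count of HLA-B, HLA-C and HLA-E together with IRF3 siRNA (0.907 to 0.957) and 0.928 with YAP siRNA (0.903 to 0.953), against 0.506 with control siRNA (0.489 to 0.523). This measure needs no library scaling, and it puts both siRNA libraries well above control. The 3 heavy chain genes together had 727 CPM with IRF3 siRNA and 764 with YAP siRNA, against 715 with control siRNA. HLA-C had 0.548 counts per HLA-B count with IRF3 siRNA, 0.606 with YAP siRNA and 0.626 with control siRNA.

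**Figure D3:**
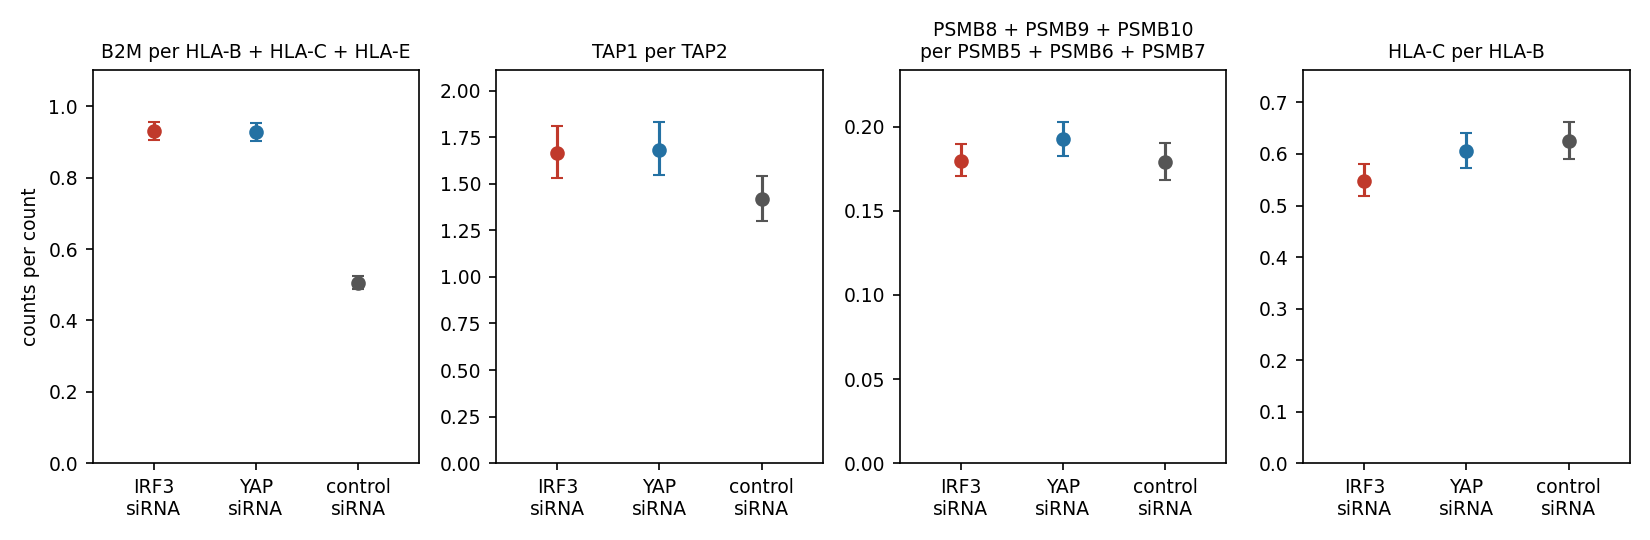
Counts of a gene or gene group per count of its partner in the IRF3 siRNA, YAP siRNA and control siRNA libraries, with exact 95% counting intervals and axes from 0. The B2M value is 0.932 and 0.928 in the siRNA libraries against 0.506 in control, and the TAP1 value 1.67 and 1.68 against 1.42.

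The subunits of the transporter, TAP1 and TAP2, lay on opposite sides of the control library as deposited, and this did not hold on another scale. TAP1 stood at 18.5 FPKM with IRF3 siRNA and 18.1 with YAP siRNA, against 17.4 with control siRNA, ratios of 1.06 (0.984 to 1.14) and 1.04 (0.962 to 1.12). TAP2 stood at 5.62 and 5.45 FPKM, against 6.23 with control siRNA, ratios of 0.902 (0.822 to 0.989) and 0.874 (0.795 to 0.960). The TAP1 intervals took in 1 and those of TAP2 did not, and with the dependence on level, length and GC content (given with ERAP1) taken out, TAP1 had log2 ratios of -0.01 in both comparisons while TAP2 had 0.03 with IRF3 siRNA and -0.03 with YAP siRNA. There were 1.67 TAP1 counts per TAP2 count with IRF3 siRNA (1.53 to 1.81) and 1.68 with YAP siRNA (1.54 to 1.83), against 1.42 with control siRNA (1.30 to 1.54). TAPBP, whose product tapasin edits the peptide cargo, stood at 9.40 FPKM with IRF3 siRNA and 8.86 with YAP siRNA, against 7.62 with control siRNA. Its ratios of 1.23 (1.13 to 1.35) and 1.16 (1.06 to 1.27) were the highest after B2M. On log2 of FPKM plus 1, 12.3% and 17.9% of all measured genes were as high or higher, against 0.549% and 0.423% for B2M. With YAP siRNA the TAPBP interval overlapped those of NLRC5 (0.960 to 1.29) and HLA-B (1.05 to 1.16). With level, length and GC content taken out, the log2 ratio with YAP siRNA was 0.18 for TAPBP and 0.29 for NLRC5, so that order turned.

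ERAP1, which trims peptides that are too long for the class I groove, had the lowest FPKM ratios to control of the 9. It stood at 1.42 FPKM with IRF3 siRNA and 1.39 with YAP siRNA, against 2.50 with control siRNA, from 217, 204 and 356 counts. Both siRNA libraries were low and close to each other. Ratios to control were 0.569 (0.478 to 0.676) and 0.556 (0.465 to 0.662), and the log2 ratios on FPKM plus 1 were -0.53 and -0.55, shrunken by the pseudocount at this low level (-0.77 and -0.80 with a pseudocount of 0.1). ERAP1 has long exon sequence (7945 bases in union) of low GC content (39.7%), and ratios across genes followed level, exon length and GC content, which together took up 22.5% of the variance in the IRF3 siRNA comparison and 18.7% in the YAP siRNA one. With that trend removed the log2 ratios of ERAP1 were -0.21 and -0.27, and those of B2M were 1.03 and 1.04. HLA-C then had -0.34 with IRF3 siRNA, so ERAP1 was the lowest of the 9 on that scale only with YAP siRNA. ERAP1 also shares exon sequence with CAST, the calpastatin gene, which is read from the other strand. Whether counting used strand is not stated, so reads of the pair cannot be told apart, and CAST had log2 ratios of -0.45 and -0.35.

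NLRC5, the class I transactivator, was at the filter's edge, with 0.972 FPKM with IRF3 siRNA and 1.12 with YAP siRNA, against 1.01 with control siRNA. From 347, 385 and 335 counts, the ratios to control were 0.967 (0.830 to 1.13) and 1.11 (0.960 to 1.29). Both intervals took in 1, so no difference was detectable at this depth.

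Levels were also compared between genes, which needs a sound gene length. The length behind the deposited FPKM equals, within 1%, the summed length of all distinct annotated exons, overlapping ones counted again, for 88.2% of 11072 measured genes. It did not match within 1% for 4 of the 9 genes, differing from that sum by -3.76% for B2M, -4.35% for HLA-C, -6.78% for HLA-B and -29.5% for TAP1. The length behind the B2M values was 12755 bases, 2.10 times the union of its exons in GENCODE release 29, and that behind HLA-E was 1.33 times its union. Deposited FPKM is therefore low for genes whose exon sum far exceeds the union. The ratio of plain FPKM between libraries does not depend on the length, but that of FPKM plus 1 does: with union lengths ERAP1 had log2 ratios of -0.57 and -0.60. In CPM per kilobase of union exon, HLA-E led in every library, at 126 with IRF3 siRNA, 128 with YAP siRNA and 122 with control siRNA. B2M was second in both siRNA libraries, at 111 and 117, while in control, at 59.5, it came after HLA-B at 71.2. HLA-C followed in every library, then TAP1, TAPBP and TAP2. ERAP1 (1.83 with IRF3 siRNA, 1.78 with YAP siRNA, 3.21 with control siRNA) and NLRC5 (1.88, 2.16 and 1.94) came last in each. The counting intervals of these 2 genes overlapped in both siRNA libraries and not in control, and no other neighbours in the order overlapped on this scale. HLA-B and B2M have other gene bounds in GENCODE than in the deposited table, so their union lengths are less certain. Deposited FPKM puts these 2 genes in the same order in each library. The lead of HLA-E over B2M rests on the length used. B2M had 10124 counts with IRF3 siRNA and 10197 with YAP siRNA, against 5598 and 5469 for HLA-E. With control siRNA the counts were 5049 for B2M and 5051 for HLA-E.

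Between the IRF3 siRNA and YAP siRNA libraries themselves, the members differed little. The log2 ratios of IRF3 siRNA to YAP siRNA ran from -0.21 (HLA-C) to 0.08 (TAPBP), with a median of -0.02 beside -0.01 over all genes. B2M had -0.06 (FPKM ratio 0.956, 0.930 to 0.983) and ERAP1 0.02 (1.02, 0.842 to 1.25). Counting intervals left out 1 for 3 of the 9 genes (HLA-B, HLA-C and B2M), a share near the 31.6% of all genes, and against control for 5 with IRF3 siRNA and 7 with YAP siRNA, beside 56.9% and 52.4% of all genes. Both comparisons with control share the 1 control library, so the similar values of B2M and ERAP1 in them are not separate observations. Against control, 5 of the 9 log2 ratios were above 0 with IRF3 siRNA and 7 with YAP siRNA, with medians of 0.05 and 0.08. Over all genes 46.1% and 46.5% were above 0, with medians of -0.03 and -0.02. This depends on the scale. With the dependence on level, length and GC content taken out, the members had medians of -0.01 and -0.03. Over all genes 51.7% and 52.2% were then above 0, with medians of 0.009 and 0.013, so the members' medians were no longer the higher ones.

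**Figure D4:**
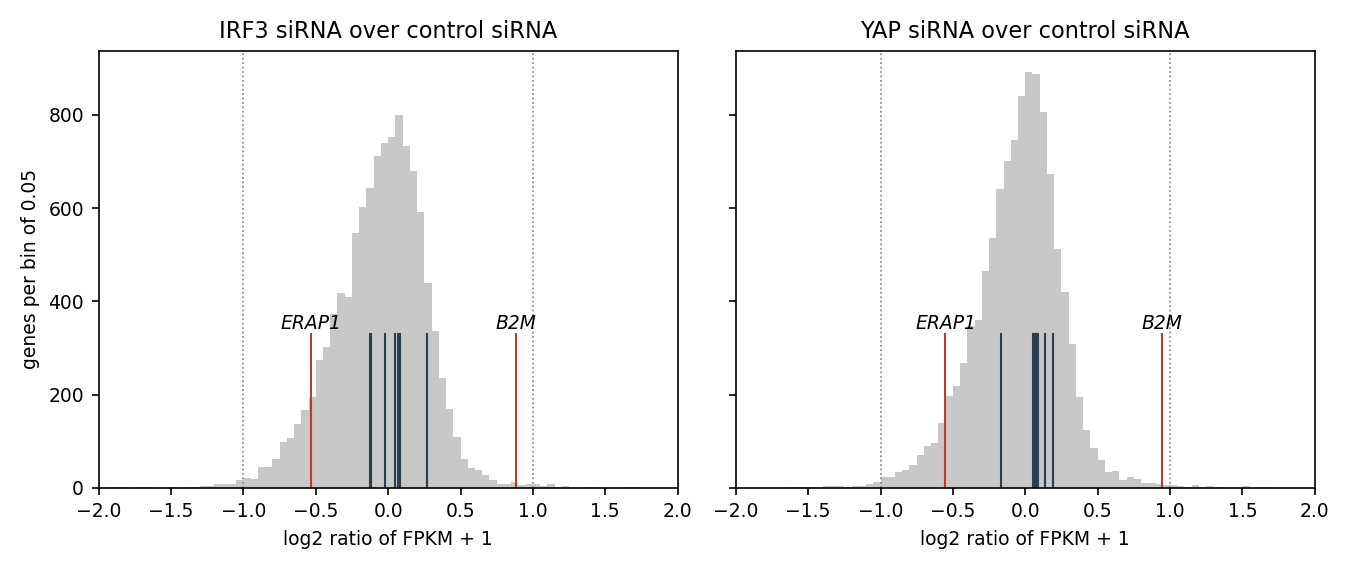
Number of genes per bin of 0.05 in the log2 ratio of FPKM plus 1, for IRF3 siRNA over control and YAP siRNA over control, with a vertical line for each of the 9 genes and dotted lines at 2-fold. B2M lies at 0.88 and 0.95 in the upper tail, ERAP1 at -0.53 and -0.55, and the 7 other genes between -0.17 and 0.27.

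The rest of the pathway was followed through 8 lists, and no measured gene in them passed 2-fold on FPKM plus 1 in any of the comparisons. In the values that follow IRF3 siRNA comes before YAP siRNA, both as log2 ratios to control. Proteasome genes, which cut the peptides, were nearly all above 0. Of 10, 10 were above 0 with IRF3 siRNA and 9 with YAP siRNA, with medians of 0.26 in both. On TMM-scaled CPM the medians were 0.37 and 0.36, beside 0.07 and 0.06 over all genes. PSMB8 (0.27 and 0.42) and PSMB10 (0.33 and 0.40), inducible catalytic subunits of the immunoproteasome, the constitutive subunit PSMB7 (0.38 and 0.27) and the assembly factor POMP (0.40 and 0.40) had the largest values when the larger of the comparisons is taken for each gene. Taking out the dependence on level, length and GC content left PSMB8 at 0.20 and 0.34, PSMB10 at 0.17 and 0.28, PSMB7 at 0.27 and 0.14 and POMP at 0.27 and 0.23. All 10 were then above 0 in both comparisons, with medians of 0.18, beside 0.01 over all genes. The proportion of inducible to constitutive subunits had overlapping counting intervals in the 3 libraries, with 0.180 counts of PSMB8, PSMB9 and PSMB10 per count of PSMB5, PSMB6 and PSMB7 with IRF3 siRNA (0.171 to 0.190) and 0.193 with YAP siRNA (0.183 to 0.203), against 0.179 with control siRNA (0.169 to 0.190).

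Loading cofactors had values on both sides of 0. The lectin chaperone gene CANX, which holds newly made heavy chains, had -0.65 and -0.87, and UGGT1, the glucosyltransferase that returns poorly loaded molecules to the chaperone cycle, had -0.84 and -0.70. GANAB (0.41 and 0.46) and PRKCSH (0.22 and 0.15), the subunits of glucosidase II, were above 0. CALR had 0.20 and 0.16 and PDIA3 had -0.08 and -0.02; both belong to the peptide loading complex and were added to the named genes with their values known. Over the 7 measured members 3 were above 0 in each comparison, with medians of -0.08 and -0.02. Once the dependence on level, length and GC content was taken out, CANX had -0.50 and -0.77, UGGT1 -0.52 and -0.41 and GANAB 0.34 and 0.39. PRKCSH then had 0.06 and 0.04, CALR 0.03 and -0.005, and PDIA3 -0.01 in both.

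**Figure D5:**
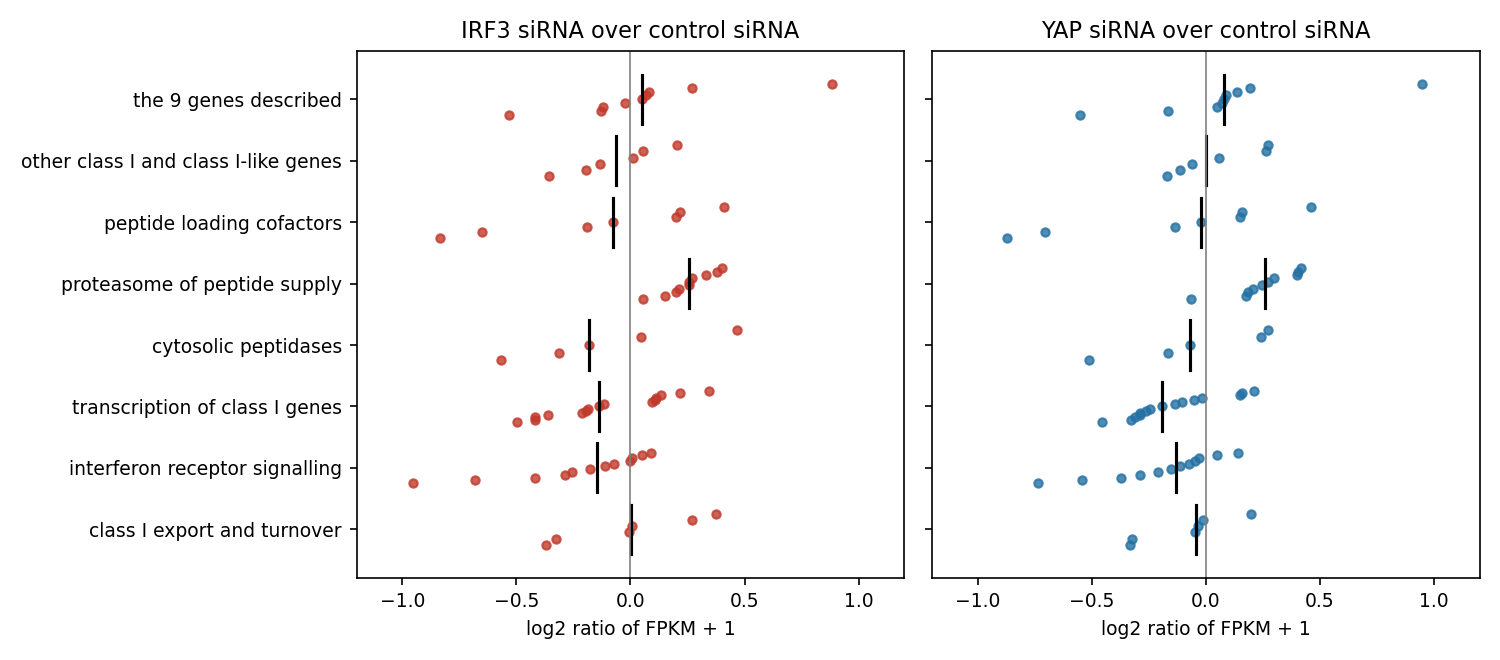
Log2 ratio of FPKM plus 1 to control for each measured gene, with IRF3 siRNA in the left panel and YAP siRNA in the right, 1 row per list; black bars are medians. The proteasome row lies at 0.26 in both panels, while B2M, the rightmost point of the top row, lies at 0.88 and 0.95.

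Upstream genes were more often below 0 than above it on FPKM plus 1, as were all genes (53.9% with IRF3 siRNA and 53.4% with YAP siRNA). In the list on transcription of class I genes, 9 of 15 measured members were below 0 with IRF3 siRNA and 12 with YAP siRNA, with medians of -0.14 and -0.19. SUZ12, a subunit of the Polycomb complex that represses class I genes in some tumours, had -0.50 and -0.46, the trimeric factor subunit NFYA -0.42 and -0.31, and IRF2 -0.36 and -0.33. Taking out level, length and GC content left 7 and 9 of the 15 below 0, with medians of 0.01 and -0.08, so with IRF3 siRNA the list was no longer below 0. Over all genes 48.3% and 47.8% were below 0 on that scale, with medians of 0.009 and 0.013. SUZ12 then had -0.23 in both, NFYA -0.29 and -0.24, and IRF2 -0.23 and -0.25. Interferon receptor signalling had 9 and 10 of 12 below 0, with medians of -0.15 and -0.13. Among its members were the kinase gene JAK1 (-0.95 and -0.74), the receptor gene IFNAR1 (-0.68 and -0.37) and the feedback inhibitor gene SOCS1 (-0.26 and -0.54). JAK1 was past 2-fold with IRF3 siRNA on TMM-scaled CPM (-1.01), where 350 of all 11103 genes passed in either direction. With overlapping genes summed it had -0.85 and -0.66. After the same correction 8 and 9 of the 12 were below 0, with medians of -0.10 and -0.07; JAK1 had -0.75 and -0.57, IFNAR1 -0.39 and -0.13, and SOCS1 -0.34 and -0.58.

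The remaining lists held few measured genes. Cytosolic peptidases had medians of -0.18 and -0.07 over 5 measured genes (NRD1 -0.57 and -0.51, THOP1 0.47 and 0.24, NPEPPS -0.31 and -0.17, LAP3 0.05 and 0.27). Export and turnover genes had medians of 0.002 and -0.04 over 6 (AP1M1 0.38 and -0.04, MARCH9 -0.37 and -0.33, SUSD6 -0.33 and -0.33, the export receptor BCAP31 0.27 and 0.20). Class I-like genes had medians of -0.06 and -0.0005 over 6 (HLA-F -0.36 and -0.11, PROCR 0.05 and 0.27, the stress ligand MICA 0.20 and 0.26, MR1 -0.19 and -0.06). The correction for level, length and GC content turned MR1 (0.12 and 0.22), PROCR with IRF3 siRNA (-0.07), NPEPPS with YAP siRNA (0.09) and AP1M1 with YAP siRNA (0.23) to the other side of 0. Of the 12 genes of the class II pathway, which serves professional antigen-presenting cells, 2 were measured (HLA-DMA 0.35 and 0.06, HLA-DRA -0.18 and 0.15). HLA-DMA had -0.28 and -0.31 with overlapping genes summed, so its direction is uncertain. The class II regulator CIITA was at 0.05 FPKM with IRF3 siRNA, 0.06 with YAP siRNA and 0.08 with control siRNA. The 14 leukocyte markers summed to 2.06 FPKM with IRF3 siRNA, 1.69 with YAP siRNA and 1.72 with control siRNA, CD2, CD3D and MS4A1 had no counts, and PTPRC was at most 0.02 FPKM. The 6 endothelial markers summed to between 0.347 and 0.408 FPKM.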

How the data were processed

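Per the labels, 3 HGC-27 cultures were sequenced, 1 per siRNA, with TRIzol RNA and standard Illumina libraries. Alignment used TopHat2 version 2.0.9 on hg38, per the submitters' processing notes; no source used here states the counter, annotation release or strand setting. The authors deposited raw counts and FPKM per gene, per the file headers. All value columns belong to these libraries.

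Log2 ratios were taken from FPKM plus a pseudocount of 1, over 11103 genes with a mean of at least 1 FPKM, and called past 2-fold. This understates changes of low genes. With 1 library per group there is no test. Ratios carry exact Clopper-Pearson 95% counting intervals, which treat reads as independent molecules and cover counting error only. The rules were tested on simulated counts.

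Exon lengths, overlaps and GC content (longest transcript) came from GENCODE release 29, where 93.9% of these genes had identical coordinates. Promoters came from RefSeq. The trend was an additive spline, 4 degrees of freedom per term.

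All 9 members were named, with up to 4 measured genes per list by largest ratio to control. One gene that this rule names is not reported here. Members, lists and motifs were chosen with earlier results of these data known. Alternatives were a pseudocount of 0.1, filters of 5 FPKM and none, median centring, TMM-scaled CPM, median-of-ratios size factors, a 3-fold threshold and summed overlapping genes; union exon length and trend removal were added after seeing the data. TMM factors came from edgeR 4.0.16 in R 4.3.3, splines from patsy 1.0.2, intervals from scipy 1.17.1, and tables from pandas 2.3.3 with numpy 2.4.6 under Python 3.11.15.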

Additional observations from a re-analysis of the deposited data

How the results depend on the processing

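No paired analysis was possible because each group has 1 library, and leaving out a replicate was not possible for the same reason. Of 237 values of single members under the alternatives, 206 lay within the counting error of the value reported and 31 did not. The 206 include values that could not move. A change of filter leaves a single gene's ratio as it is, and so does summing for a gene that overlaps no other. The split is therefore not a measure of stability. One member, B2M, passed 2-fold against control with TMM-scaled CPM, with median-of-ratios size factors and with the trend removed, so the count of members was 1 in both comparisons there and 0 under the other settings. With IRF3 siRNA, 350 of all 11103 genes passed with TMM-scaled CPM, 347 with size factors, and 80 of 11066 with the trend removed. With YAP siRNA these were 333, 339 and 70. The B2M log2 ratio ran from 0.88 to 1.03 with IRF3 siRNA and from 0.95 to 1.06 with YAP siRNA over all settings; ERAP1 ran from -0.77 to -0.21 and from -0.80 to -0.27. HLA-B and HLA-E ratios turned below 0 in both comparisons with the trend removed, as did HLA-C with YAP siRNA. The members' median with IRF3 siRNA (0.05) was 0.15 with TMM-scaled CPM, 0.16 with size factors, which moved the median gene by 0.10, and -0.011 with the trend removed; with YAP siRNA (0.08) it was 0.18, 0.17 and -0.03. With overlapping genes summed the IRF3 siRNA median was -0.003. NLRC5 with IRF3 siRNA turned above 0 with TMM-scaled CPM (0.05). On that scale the list medians below 0 turned above it for loading cofactors (0.02 and 0.07) and class I-like genes (0.04 and 0.10). With YAP siRNA those of cytosolic peptidases (0.02) and of export and turnover genes (0.04) did so too.

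Over all genes, calls with IRF3 siRNA (111) numbered 380 with a pseudocount of 0.1, 350 with TMM-scaled CPM, 347 with size factors, 41 at 5 FPKM and 25 at 3-fold. With YAP siRNA (91) they numbered 346, 333, 339, 36 and 17 in that order of settings. For IRF3 siRNA against YAP siRNA (68) they numbered 163, 167, 164, 27 and 31, and 33 with overlapping genes summed. The cause of these differences was not tested.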
